A study of Homo sapiens with 6 samples.

Results

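Between the topologically associating domains (TADs) of LNCaP cells treated with control siRNA lie stretches that the authors' caller placed in no domain. Gaps of over 100 kb between neighbouring control TADs are described here. On the autosomes, 2763 control TADs left 2741 intervals between neighbours, of which 1697 had no length because the TADs abutted, 492 spanned 40 or 80 kb and 552 were over 100 kb. Gaps were selected on the control TAD list by that length limit, and on the contact maps by having contacts in at least 50% of their 40 kb bins in both maps, a rule meant to leave out centromeres and large assembly gaps. That left 490 gaps with a total length of 126.8 Mb, between 120 kb and 2520 kb each, with a median of 200 kb.

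A TAD is a region whose parts contact each other more than they contact the sequence outside it. CTCF, a zinc-finger protein that binds DNA, and cohesin, a ring-shaped complex that extrudes chromatin loops, are found at many TAD borders, where cohesin is held at pairs of convergent CTCF sites. Sequence between TADs has either no clear preference for upstream or downstream partners or too few contacts for a caller to place it.

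LNCaP is an established androgen-responsive prostate cancer line. Control siRNA cells (2 Hi-C libraries) had taken up a non-targeting pool and CTCF siRNA cells (4 Hi-C libraries) a pool against CTCF, both at 20 nM for 144 h, so the groups share the line, the dose of siRNA and the time. Libraries of a condition had been pooled by the authors into 1 contact map and 1 TAD list, hence there is no replicate, and the intervals below reflect the error of counting or the spread among gaps or bins, not that between cultures. The labels do not say whether the 4 CTCF siRNA libraries came from 4 cultures or included repeats of fewer. Their replicate numbers fall into 2 pairs with the same leading digit. The paper states 2 independent biological experiments for its plot of CTCF sites at TAD boundaries. The residual level of CTCF protein was not analysed here.

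The control map held 26174669 read pairs, 13665320 of them within a chromosome, and the CTCF siRNA map held 87657899 and 56304240. Neither map held a contact before position 9400001 of any chromosome, and 121 further bin positions before position 48120000 were empty on every chromosome. Of the 62 gaps over 100 kb that were left out, 41 lay mostly in these shared empty positions and 21 elsewhere. The kept gap with the fewest filled bins had contacts in 53.8% of them, the gap left out with the most had 43.6%, and 466 of the 490 had contacts in every bin. At the length limit, 135 kept gaps were 120 kb long and 149 intervals just under it were 80 kb long.

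Gap bins were poorer in reads than TAD bins. A bin was called usable if in each map it held at least 10% of the median number of contacts per bin within that chromosome, which 84.5% of filled gap bins and 99.0% of filled TAD bins did. Usable gap bins held a median of 0.834 times the chromosome's median in control (95% interval 0.815 to 0.846) and 0.846 times in CTCF siRNA (0.821 to 0.866). In 423 gaps every bin was usable, and in 49 gaps, 19 of which held unsequenced bases, under 50% were.

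CTCF motif letters in gaps are printed first, since CTCF is the protein that was depleted. The letters searched were CCNNNAGGGGGC on both strands, a core of the known CTCF motif, and a match is not a binding site. Gaps held 738 matches, or 5.94 per Mb, against 5.08 per Mb in control TADs, with more per Mb in gaps on 11 of 22 autosomes. Of the 135 gaps of 120 kb, 37.0% held a match, beside 37.8% of all 120 kb windows with contacts, and of the 71 gaps of 200 kb, 64.8% did, beside 51.7% of all 200 kb windows. The lines below give every match in the gaps with the largest rise in contacts across them, in the long gaps that no CTCF siRNA TAD covered and in the long gaps that 1 CTCF siRNA TAD bridged, wherever these gaps had usable bins. Coordinates are hg19, each sequence runs 5′ to 3′ on the strand of the match, and capitals mark the 12 bases of the match.
chr12:58159384-58159413, minus strand, gap at CDK4: gtttccgtaCCCCAAGGGGGCagacgcaat
chr2:127780614-127780643, plus strand, gap at BIN1: catgaagagCCAGCAGGGGGCattctcatc
chr2:127807894-127807923, minus strand, gap at BIN1: ggagacaggCCAGCAGGGGGCagcagaggc
chr2:127820975-127821004, plus strand, gap at BIN1: ccaggcactCCTGAAGGGGGCtgttccaca
chr18:26014345-26014374, plus strand, uncovered gap without a protein-coding start: gatccctctCCTTGAGGGGGCtacagaaat
chr18:26055812-26055841, minus strand, uncovered gap without a protein-coding start: ttagttggcCCCCAAGGGGGCagttcctgc
chr18:26218037-26218066, minus strand, uncovered gap without a protein-coding start: gagtgttggCCTCCAGGGGGCatgttgcca
chr18:26281669-26281698, plus strand, uncovered gap without a protein-coding start: tttcatagcCCCAAAGGGGGCcaggtttta
chr18:26497798-26497827, plus strand, uncovered gap without a protein-coding start: tggtgaaatCCAAAAGGGGGCactgaaacc
chr18:64658320-64658349, minus strand, uncovered gap at CDH19: tatattagaCCAGAAGGGGGCtctgtcctc
chr1:189101841-189101870, plus strand, bridged gap without a protein-coding start: ccacagtttCCCAAAGGGGGCatccacagc
The gap at LSM5 and AVL9 on chromosome 7 had the largest rise across it of all by counts. It and the bridged gap at CA10 on chromosome 17 held no match to these letters.

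The first question was whether the gaps had become part of a TAD after CTCF siRNA. CTCF siRNA TADs covered 316 of the 490 gaps in full (64.5%, Wilson 95% interval 60.2 to 68.6%), 103 in part and 71 not at all (14.5%, 11.7 to 17.9%). By length, 69.5% of the gap sequence lay in CTCF siRNA TADs. Both shares were below those of the autosomes at large, where 90.1% of 20 kb windows with contacts lay in a CTCF siRNA TAD. Of 200 kb windows with contacts throughout, 85.9% were covered in full and 6.21% were not covered. Longer and shorter windows below were held to the same condition, while 466 of the 490 gaps had contacts in every bin. So most control gaps lay inside a TAD of the other list, yet less often than autosomal sequence in general.

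Longer gaps were covered less often. Of the 135 gaps of 120 kb, 69.6% were covered in full (61.4 to 76.8%), where 87.8% of all windows of that length were. The share was 70.3% of the 158 gaps of 160 to 200 kb and 61.1% of the 131 gaps of 240 to 400 kb. It was 47.0% (35.4 to 58.8%) of the 66 longer gaps, whose median was 560 kb. Of 520 kb windows with contacts throughout, 78.2% were covered in full. Enough usable bins to measure contacts inside the gap were present in 46 of these 66 gaps, beside 126 of the 135 gaps of 120 kb.

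**Figure D1:**
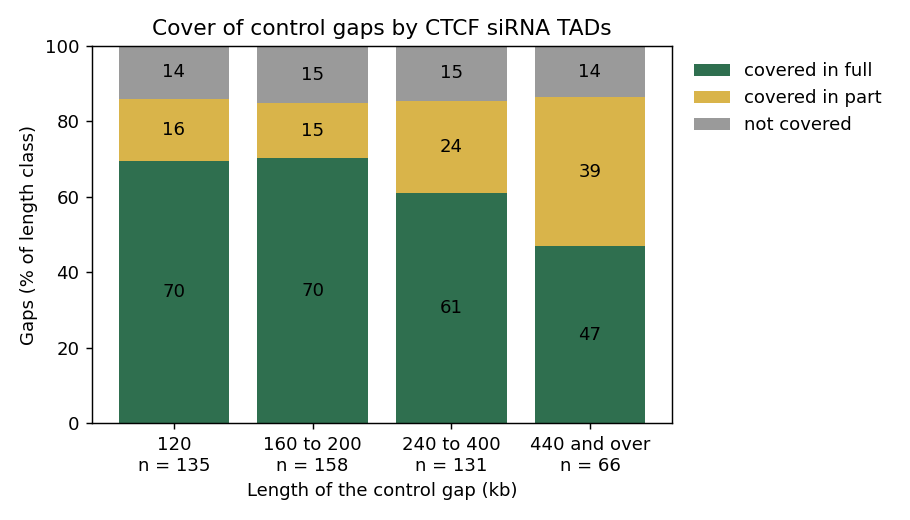
Share of control gaps (y axis, % of each length class) covered in full, in part or not at all by CTCF siRNA TADs, by gap length in kb (x axis, with the number of gaps); the numbers in the bars are rounded percentages. The part covered in full is 69.6% at 120 kb and 47.0% at 440 kb and over.

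Read depth moved with coverage. Among the 423 gaps with every bin usable, 304 were covered in full (71.9%, 67.4 to 75.9%) and 79.7% of their length lay in CTCF siRNA TADs. Among the 49 gaps with under 50% of bins usable, 8 were covered in full (16.3%, 8.51 to 29.0%) and 20 were not covered. The latter gaps had a median length of 360 kb, beside 200 kb where every bin was usable. The parts that read depth and gap length play in the coverage were not separated, and were not tested beyond these counts.

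Cover took several forms. In 136 gaps (27.8%) 1 CTCF siRNA TAD ran through the gap into both flanking control TADs, and in 72 of these it held both flanking TADs whole, within 40 kb at each end. These gaps lay in 128 CTCF siRNA TADs with a median length of 1900 kb. In 72 gaps the covering TAD reached into the left flank and ended at the gap's right edge, and in 42 gaps it reached into the right flank. In 65 gaps several CTCF siRNA TADs together covered the gap, so that a new border lay inside it. In 1 gap a CTCF siRNA TAD filled just the gap. Conversely, 149 gaps overlapped a gap of over 100 kb in the CTCF siRNA list, and 69 had such a gap with both edges within 40 kb. Of all 200 kb windows with contacts, 10.8% overlapped a CTCF siRNA gap of over 100 kb.

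The converse was counted as well. The CTCF siRNA list left 396 gaps of over 100 kb with contacts, 195.1 Mb in all, and control TADs covered 210 of them in full (53.0%, 48.1 to 57.9%), 110 in part and 76 not at all. Their median length was 240 kb, and 84.5% of all 240 kb windows were covered in full by control TADs. By length, 79.8% of the CTCF siRNA gaps lay in control TADs, beside 92.4% of 20 kb windows. Of the control gaps 30.4% overlapped a CTCF siRNA gap, and of the CTCF siRNA gaps 37.4% overlapped a control gap, beside 9.28% of all 240 kb windows. The 444 short control gaps of 40 or 80 kb with contacts were covered in full in 82.0% (78.1 to 85.3%), in part in 11 cases and not at all in 15.5% (12.5 to 19.2%). Of all 40 kb windows 89.7% were covered in full, and of all 80 kb windows 88.8% were covered in full and 8.23% not covered.

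Contacts were then compared as observed over expected, where the expected value is the mean of usable bin pairs at the same distance on the same chromosome. The difference between maps is given as log2 in CTCF siRNA minus log2 in control. Since the control TAD list was called from the control map, control values in and across gaps describe the choice of the gaps. Each value is also given after iterative balancing, which scales the bins of a chromosome to the same total.

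Contacts within gaps were slightly lower after CTCF siRNA. Among 434 gaps with enough usable bins the median log2 of observed over expected was -0.19 in control and -0.51 in CTCF siRNA, with a median change per gap of -0.16 (-0.24 to -0.08). It was -0.26 for bin pairs at least 2 bins apart, and -0.058 with the bin centred on the start of the gap taken in place of that on its end, where the choice between these bins was made after seeing the data. Contacts within were higher in CTCF siRNA in 173 gaps (39.9%), beside 44.9% of control TADs. Balanced, the medians were 0.23 and 0.07 and the change -0.13 (-0.15 to -0.10), with 95 gaps higher (21.9%), beside 10.4% of control TADs. Control TADs themselves had a median change of -0.08 (-0.12 to -0.04) by counts and -0.09 (-0.10 to -0.09) balanced. Among the gaps of 40 or 80 kb, 139 had a value. Their median change was -0.47 (-0.62 to -0.23) by counts and -0.23 (-0.31 to -0.14) balanced. Local contacts of single bins, those with the sequence within 200 kb on either side of the bin, were also compared. By counts their median change was -0.13 (-0.16 to -0.09) over 2593 gap bins and -0.17 (-0.18 to -0.17) over 55706 TAD bins. Balanced, it was -0.014 (-0.022 to -0.0065) in gap bins and -0.00038 (-0.0021 to 0.0012) in TAD bins.

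Contacts across gaps rose. Between the 400 kb to the left and the 400 kb to the right of a gap, the median log2 of observed over expected was -0.91 in control and -0.55 in CTCF siRNA over 482 gaps, a median change of 0.39 (0.30 to 0.45) or 1.31-fold. Contacts across were higher in CTCF siRNA in 342 gaps (70.95%), beside 78.7% of control TAD pairs that abut. Balanced, 378 gaps were higher (78.4%), beside 89.5% of abutting pairs, and the median change was 0.35 (0.31 to 0.40). The change at abutting TADs was 0.49 (0.45 to 0.53) by counts and 0.41 (0.40 to 0.43) balanced, and at gaps of 40 or 80 kb it was 0.38 (0.35 to 0.46) and 0.41 (0.38 to 0.46). The difference between these classes was not tested. Abutting pairs and gaps of 40 or 80 kb were also chosen on the control map, so neither is a neutral background. No share over all autosomal positions is given.

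The rise across gaps by counts differed with gap length. It was 0.51 (0.38 to 0.59) at 120 kb and 0.38 (0.28 to 0.45) at 160 to 400 kb, but 0.01 (-0.35 to 0.43) in the longer gaps, of which 31 of 62 were higher in CTCF siRNA. Balanced, the medians were 0.45, 0.31 and 0.33 (0.11 to 0.40) in the same order.

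Contacts between a gap and the 400 kb on each side of it also rose. The median log2 of observed over expected was -0.52 in control and -0.43 in CTCF siRNA over 440 gaps, with a median change of 0.20 (0.11 to 0.26), or 0.11 with the bin centred on the start of the gap taken in place of that on its end. In the 47 gaps of over 400 kb it was -0.10 (-0.42 to 0.32) by counts and 0.23 (0.14 to 0.31) balanced. Of all 440 gaps, 279 were higher in CTCF siRNA (63.4%), beside 55.2% of gaps of 40 or 80 kb. Balanced, 386 gaps were higher (87.7%), beside 67.7% of the shorter gaps, and the median change was 0.17 (0.16 to 0.19), against 0.07 (0.05 to 0.10) in the shorter gaps.

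**Figure D2:**
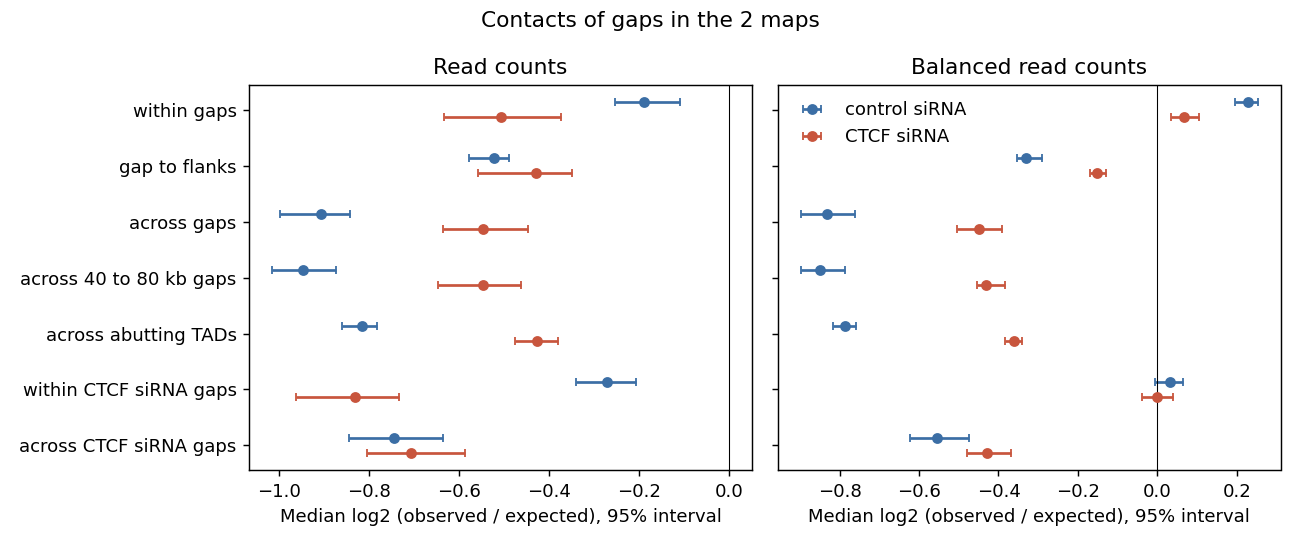
Median log2 of observed over expected contacts (x axis) with 95% order-statistic intervals for control siRNA (blue) and CTCF siRNA (red), from read counts (left) and balanced counts (right); rows give contacts within gaps, of gaps with their flanks and across gaps, then the same for other control borders and for gaps of the CTCF siRNA list. Contacts across control gaps move from -0.91 to -0.55 by counts, and those across CTCF siRNA gaps from -0.74 to -0.71.

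The gaps of the CTCF siRNA list, chosen by the same rule on the other map, differed in the size of these changes. By counts the change with the flanks also differed in direction. Their make-up differed too, with a pooled GC content of 37.7% beside 41.4% in control gaps. Their usable bins held a median of 0.892 times the chromosome's median in control and 0.667 times in CTCF siRNA. Those of control gaps held 0.834 and 0.846 times. Across them the median change was 0.07 (-0.04 to 0.17) by counts and 0.12 (0.07 to 0.18) balanced. Contacts within them changed by -0.49 (-0.57 to -0.37) by counts but by -0.03 (-0.04 to -0.01) balanced. Contacts of these gaps with their flanks fell by counts, with a median change of -0.25 (-0.35 to -0.16), and 129 of 349 were higher (37.0%). Balanced, that change was 0.026 (0.005 to 0.053). How much of the rise at control gaps follows from their having been chosen on the control map was not tested. These values give the same measure for gaps chosen on the other map, which also differ in base composition and read depth.

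Base composition moved with the changes by counts within gaps, with their flanks and across them. Gaps were split into terciles of GC content, at 33.7 to 39.2%, 39.2 to 43.5% and 43.5 to 59.0%. By counts, contacts within changed by -0.85 (-0.92 to -0.75) in the lowest tercile, -0.08 in the middle one and 0.33 (0.23 to 0.38) in the highest. Contacts with the flanks changed by -0.39 (-0.48 to -0.32), 0.28 and 0.61 in the same order, so that 33 of 159 gaps of the lowest tercile were higher in CTCF siRNA. Contacts across changed by 0.02 (-0.08 to 0.17), 0.42 and 0.68. Balanced, contacts within changed by -0.12, -0.15 and -0.14. Balanced contacts with the flanks changed by 0.20 (0.18 to 0.22), 0.18 (0.15 to 0.22) and 0.14 (0.10 to 0.17), and those across by 0.44 (0.38 to 0.53), 0.27 (0.19 to 0.37) and 0.32 (0.22 to 0.38). The direction of each balanced median was the same in all terciles. The lowest tercile, which had the lowest median changes with the flanks and across by counts, had the highest of both balanced. From the lowest to the highest tercile, 101 of 164, 107 of 163 and 108 of 163 gaps were covered in full.

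**Figure D3:**
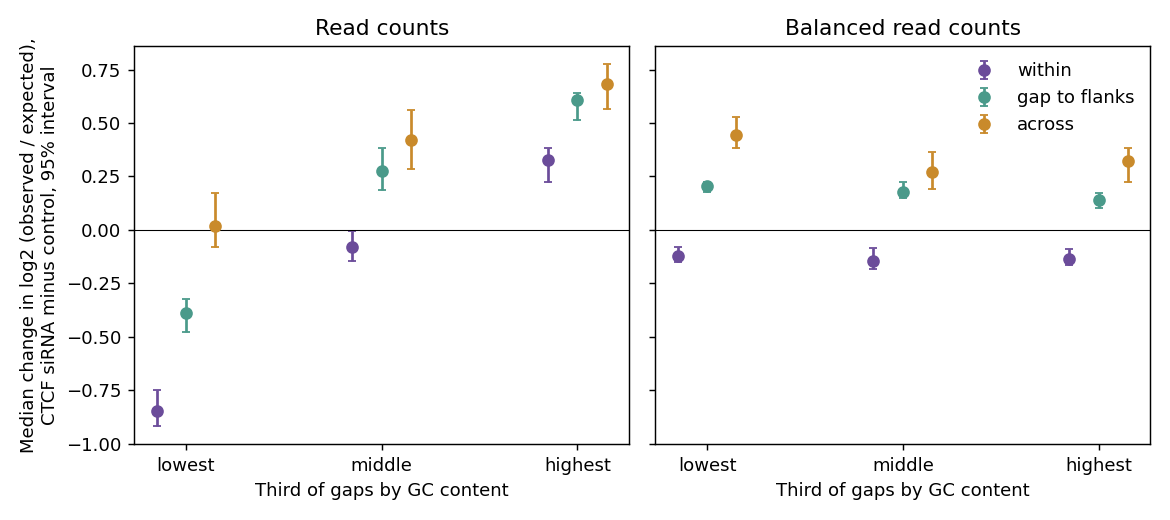
Median change in log2 observed over expected, CTCF siRNA minus control (y axis, 95% order-statistic intervals), for terciles of gaps by GC content (x axis), from read counts (left) and balanced counts (right). By counts the change within gaps runs from -0.85 to 0.33, and after balancing it lies between -0.15 and -0.12.

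The form of cover and the contacts in CTCF siRNA come from the same map, so no test was made between forms. Balanced contacts across changed by 0.53 (0.44 to 0.66) in the gaps bridged by 1 CTCF siRNA TAD and were higher in 124 of 134. The change was 0.29 (0.18 to 0.36) where the covering TAD joined 1 flank and 0.02 (-0.13 to 0.22) where several TADs covered the gap. In the uncovered gaps it was 0.39 (0.27 to 0.66), and 62 of 69 were higher. By counts the order of the forms was another one. The change across was 0.27 (0.19 to 0.47) in the bridged gaps, with 92 of 134 higher, 0.44 (0.30 to 0.55) where 1 flank was joined, 0.43 (0.27 to 0.58) under several TADs and 0.38 (0.17 to 0.69) in the uncovered gaps, with 45 of 69 higher. The bridged gaps thus had the largest of these medians balanced and the smallest by counts.

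Gaps that joined 1 flank were compared on both sides. In the CTCF siRNA map 101 of 111 such gaps had more balanced contacts with the joined flank than with the other one, with median log2 values of 0.08 and -0.47, as the TAD call implies. In the control map it was 60 of 111 (54.1%, 44.8 to 63.0%), with medians of -0.28 and -0.31. By counts it was 72 of 111 in control (64.9%, 55.6 to 73.1%). These intervals reflect the number of gaps in 1 pooled map, and no test was made.

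Directional bias, the difference of downstream and upstream contacts within 2 Mb divided by their sum, is related to the directionality index that the TAD caller reads, though not the same statistic. Control gap and TAD bins were thus chosen by a related measure of the same control contacts, and the values below are a description of that choice, with no test of a change. The CTCF siRNA map was thinned to the depth of the control for this measure. The median size of the bias in gap bins was 0.0795 in control (0.0754 to 0.0833) and 0.123 in CTCF siRNA (0.118 to 0.128). Bins of control TADs had 0.179 in control against 0.132 in CTCF siRNA. In gaps of the CTCF siRNA list the values were 0.131 in control and 0.0842 in CTCF siRNA. For both lists the bias was smaller in the map on which the gaps had been called.

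Gap edges were called from a like measure on the control map, and the bins counted as inside a gap were aligned on the turn of the control bias, so the profile along the edges also describes the choice. In the last control TAD bin before a gap the median bias was -0.29 in control and -0.21 in CTCF siRNA, and in the first bin of the gap it was 0.003 and -0.03. The first TAD bin after a gap had 0.29 in control against 0.20 in CTCF siRNA.

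**Figure D4:**
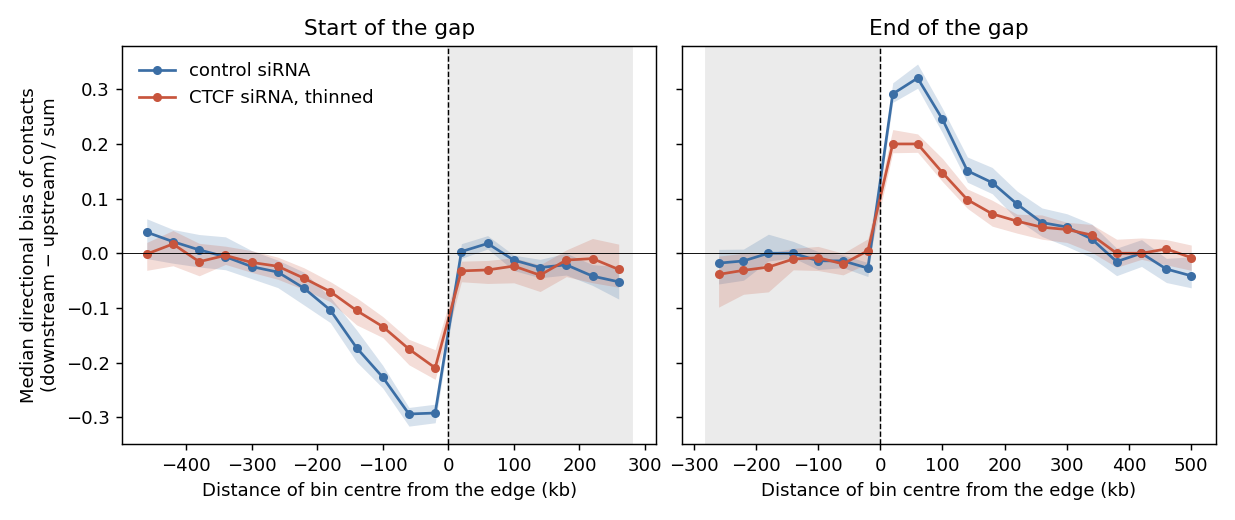
Median directional bias of contacts (y axis, downstream minus upstream over their sum) with 95% order-statistic bands, by distance of the bin centre from the start (left) and end (right) of the gap in kb (x axis), for control siRNA (blue) and thinned CTCF siRNA (red); the grey area is the gap. Before the start of the gap the control reaches -0.29 and CTCF siRNA -0.21.

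Gaps were richer in genes than TADs. They held 1335 protein-coding start sites, or 10.5 per Mb, against 6.50 per Mb in control TADs and 13.3 per Mb in gaps of 40 or 80 kb. The density was higher in gaps than in TADs on 20 of 22 autosomes, with chromosomes 5 and 21 as the exceptions. Gaps of the CTCF siRNA list held 4.44 per Mb. Starts of long non-coding RNA genes stood at 7.64 per Mb in gaps and 6.36 per Mb in TADs. The median gap held 2 protein-coding starts, 104 gaps held none, 20 held at least 10, and 50 gaps overlapped no protein-coding gene at all.

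**Figure D5:**
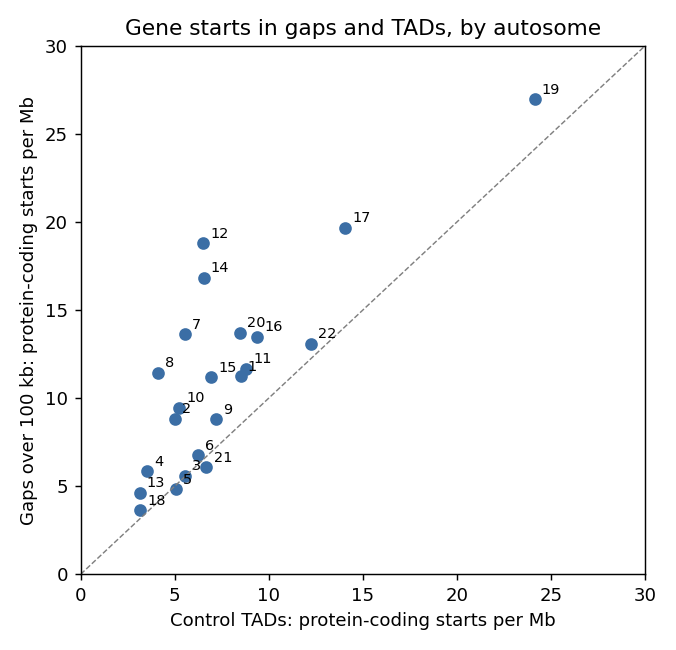
Protein-coding start sites per Mb in control TADs (x axis) and in gaps over 100 kb (y axis), 1 point per autosome with its number; the dashed line marks equal density. Of 22 autosomes, 20 lie above the line.

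Gaps covered in full held somewhat more genes than uncovered ones, at a like GC content. Gaps covered in full held 11.05 protein-coding starts per Mb, those covered in part 10.4 and uncovered ones 8.57. Their median GC content was 41.2% (40.6 to 41.9%), 41.5% and 40.02% (38.4 to 42.5%), beside 40.8% in control TADs. Motif matches stood at 5.59, 6.63 and 6.15 per Mb. A protein-coding start lay in 79.4% (74.6 to 83.5%) of the gaps covered in full and in 70.4% (59.0 to 79.8%) of the uncovered ones. Gaps without a usable bin, 15 of them uncovered and 3 covered in full, held 7.45 starts per Mb. The part of read depth in these gene densities was not tested. BglII, the enzyme used to cut the chromatin, has 2.42 sites per 10 kb in the median gap and 2.73 in the median control TAD.

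Of all protein-coding genes that start in a gap or a control TAD with contacts, 8.35% start in a gap. None of the 35 prostate and androgen genes listed (KLK3, TMPRSS2, FKBP5 and others) starts in a gap, beside 32 in TADs and 3 in neither. Of the 13 genes listed for architectural proteins (CTCF, the cohesin subunit SMC3, the cohesin loader NIPBL and others) none does, beside 12 in TADs and 1 in neither. These counts were not tested against the share of 8.35%. No histone gene and no keratin or keratin-associated gene starts in a gap, beside 62 and 146 in TADs. Of the protocadherins, adhesion proteins of neurons and sensory cells, just PCDH15 does, beside 62 in TADs.

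Other families had members in gaps. For olfactory receptors, the odour sensors, 5 genes start in gaps (OR2Y1, OR2A42, OR2A7, OR2A1 and OR5AU1) and 263 in TADs, a share of 1.87%. Zinc-finger genes, mostly transcription factors, numbered 26 in gaps and 310 in TADs (7.74%), with ZNF525, ZNF765, ZNF761, ZNF813 and ZNF331 in 1 gap of chromosome 19. Solute carriers, membrane transporters such as the iron exporter SLC40A1 and the folate transporter SLC46A1, numbered 16 and 294 (5.16%). The 7 genes in gaps taken as ribosomal by a symbol with RPL or RPS were RPL37, RPL7L1, RPS20, RPL41, RPS16, RPS19 and RPS21, beside 66 in TADs (9.59%). Of the cadherins, calcium-dependent adhesion proteins, CDH11 and CDH19 start in gaps and 20 in TADs (9.09%).

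By counts, the largest rise in contacts across was at a 200 kb gap on chromosome 7 (chr7:32500001-32700000). This gap holds the starts of LSM5, a component of the spliceosome's U6 particle, and AVL9, a protein of the secretory pathway. Across it 42 contacts were observed for 250.2 expected in control, and 906 for 1088 in CTCF siRNA. That is a 4.96-fold rise relative to expected (95% counting interval 3.64 to 6.93). Contacts within the gap stood at 0.507 of expected in both maps, and no CTCF siRNA TAD covered it.

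Next was the 160 kb gap chr12:58140001-58300000, with 10 protein-coding starts. Among these are CDK4, the kinase that drives entry into the cell cycle with D-type cyclins, CYP27B1, which makes active vitamin D, METTL1, a tRNA methyltransferase, EEF1AKMT3, a lysine methyltransferase, and MARCHF9, a ubiquitin ligase. Contacts across went from 0.211 to 0.913 of expected, a 4.32-fold rise (3.35 to 5.67), and this gap too was in no CTCF siRNA TAD. The next, at BIN1 on chromosome 2 (chr2:127780001-127900000), a gene for a membrane-bending protein, went from 0.39 to 1.58 of expected, a 4.05-fold rise (3.34 to 4.96). There 1 CTCF siRNA TAD covered the gap and reached into both flanks. Balanced, the 3 rises were 1.66, 1.56 and 1.25 on the log2 scale. All 3 gaps were picked for the size of this change by counts, and the counting intervals do not allow for that choice.

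Rises and falls within single gaps are given by counts and balanced. These gaps too were picked for the size of the change by counts, which their intervals do not allow for. The largest rise was at chr16:69980001-70140000, with the start of the lectin gene CLEC18A, where 1 contact was observed for 71.3 expected in control and 42 for 401.3 in CTCF siRNA, a ratio of 7.47 (1.27 to 301.8). It was followed by chr4:151900001-152020000, at LRBA, a gene for a vesicle trafficking protein, with a 2.87-fold rise (1.80 to 4.83), and by chr4:25820001-25940000, at SMIM20 and SEL1L3, with a 2.43-fold rise (1.90 to 3.15). Balanced, the changes were 2.06, 0.20 and -0.24 on the log2 scale, so the last one changed sign.

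By counts, the largest fall within was at chr10:57180001-57420000, a gap with 33.7% GC at PCDH15, whose protein forms links between the sensory hairs of the inner ear. Contacts there went from 0.501 to 0.151 of expected by counts, 0.302-fold (0.242 to 0.379), yet changed by -0.06 on the log2 scale balanced. At chr11:22220001-22340000, which holds no protein-coding start, the change was 0.323-fold (0.236 to 0.444) by counts and -0.40 on the log2 scale balanced. At chr7:35060001-35180000, at DPY19L1, a gene for a mannosyltransferase, 4 contacts were seen in control for 74.8 expected and 5 in CTCF siRNA for 301.2, a ratio of 0.311 with an interval that includes 1 (0.0668 to 1.57), and the balanced change was -1.48 on the log2 scale.

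The longest gaps were mostly places with few mapped reads. The gap of 2520 kb on chromosome 9 (chr9:68420001-70940000), with the forkhead genes FOXD4L6, FOXD4L5 and FOXD4L4 among 11 protein-coding starts and with 650000 unsequenced bases, had no usable bin. A CTCF siRNA TAD of 5920 kb covered it. The gap of 1760 kb on chromosome 5 (chr5:68860001-70620000), with SERF1A, NAIP, an inflammasome sensor, and GTF2H2, a subunit of transcription factor TFIIH, among 6 starts, also had no usable bin and was not covered. Gaps of 1160 kb on chromosome 1 (chr1:147820001-148980000, at NBPF14 and other NBPF and PPIAL4 genes) and on chromosome 2 (chr2:87100001-88260000, at RGPD1, PLGLB1, PLGLB2 and RGPD2) had 2 and 0 usable bins of 29. All hold members of families with nearly identical copies, and the part of this in the low read depth was not tested.

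The gaps named for being among the longest, the longest uncovered or the longest bridged that had every bin usable held at most 1 protein-coding start. The gap of 1200 kb on chromosome 1 (chr1:188100001-189300000) holds no protein-coding start and 34.1% GC, and a CTCF siRNA TAD of 5800 kb ran through it. Contacts within went from 0.751 of expected (2761 contacts) to 0.269 (4418 contacts) by counts and changed by -0.03 on the log2 scale balanced. The gap of 1040 kb on chromosome 17 (chr17:50180001-51220000), at CA10, a brain protein related to carbonic anhydrases, was likewise bridged, and its contacts within changed by -1.19 by counts and -0.02 balanced on the log2 scale. Contacts across the former changed 0.391-fold (0.287 to 0.536) and across the latter 0.492-fold (0.390 to 0.626) by counts, and by -0.06 and -0.20 on the log2 scale balanced. On chromosome 18, the gap of 720 kb without a protein-coding start (chr18:25780001-26500000) and that of 680 kb at CDH19 (chr18:64180001-64860000) were not covered, and balanced contacts across them changed by 0.31 and 0.94 on the log2 scale. By counts these were 0.727-fold (0.486 to 1.11) and 0.834-fold (0.480 to 1.52), both with intervals that include 1.

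The 3 gaps with most genes had a GC content of 47.5, 56.6 and 50.1%. At chr12:56460001-56980000, with 27 protein-coding starts that begin with ERBB3, a receptor of the epidermal growth factor family, PA2G4, which binds it, RPL41 and ESYT1, several CTCF siRNA TADs covered the gap. Contacts across went from 0.267 to 0.46 of expected by counts, 1.72-fold (1.22 to 2.50), and changed by -0.07 on the log2 scale balanced. At chr17:79540001-79980000, with 25 starts that begin with TSPAN10, NPLOC4 and PDE6G, 27.3% of the gap was covered and contacts across stood at 0.341 and 0.315 of expected, a ratio of 0.924 (0.670 to 1.30) by counts, and changed by 0.42 on the log2 scale balanced. At chr2:74660001-74820000, with 16 starts that begin with RTKN and INO80B, a subunit of a chromatin remodeller, a TAD from the right flank covered the gap and contacts across changed 1.44-fold (1.13 to 1.85) by counts and by -0.09 on the log2 scale balanced.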

How the data were processed

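Hi-C of LNCaP cells, digested with BglII, was analysed from 1 deposited contact map and 1 deposited TAD list per siRNA. Per the methods, the authors aligned reads to hg19 (HiCUP, bowtie 1.1.0), pooled libraries in 40 kb bins and called TADs by hidden Markov modelling of the directionality index. The deposited values were counts multiplied, up to position 48120000, by a factor set by the position alone, whatever the chromosome, which was estimated and divided out. Wholeness could be checked only where 1 count was worth over 4 times the tolerance of 0.0101 plus 0.05% of each value (7035564 control and 17391166 CTCF siRNA values), and nearly all of these were whole after division, where random remainders would give 2.28% and 2.40%. The comparisons had been planned for plain counts.

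Members and gene lists were chosen with earlier results of these data known. TAD edges lie at bin centres, so bins centred after the start and up to the end of a gap were taken, a choice made after seeing the data. Shares carry Wilson intervals, medians order-statistic intervals, and folds of single gaps conditional exact ones, all at 95%. Blocks needed 50% usable pairs. Balancing ran 60 rounds. Genes were starts of GENCODE 44 on GRCh37, older symbols matched through RefSeq. Named gaps were the 5 longest, those with the 3 largest changes within (each direction) and rises across with 50 contacts expected in control, the 3 longest uncovered, bridged and gene-richest, and those with genes of the lists. Scripts (Python 3, numpy, scipy, pandas) were tested on simulated maps.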

Additional observations from a re-analysis of the deposited data

How the results depend on the processing

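Of 43 alternatives run on 10 results, 31 stayed within 1.5 times a count or inside the interval of the main value. Counts, shares, densities and GC content have no direction. Only changes in contacts and in directional bias could reverse, and none did, though the bias describes the choice of the gaps. A minimum length of 200 kb left 268 gaps, with 59.7% covered in full and 9.33 protein-coding starts per Mb. Asking for bins over 10% of the chromosome median put full cover at 69.8% and cover of the length at 78.4%. With CTCF siRNA TADs of at most 3 Mb these were 55.7% and 56.8%. The change within gaps was -0.26 for bin pairs at least 2 bins apart. Taking the bin centred on the start in place of the end, an alternative chosen after seeing the data, gave -0.058 within gaps and 0.11 between gaps and flanks. The difference in the size of directional bias, 0.043 between medians, was 0.027 at full depth of the CTCF siRNA map. The other CTCF motif letters (CCNNNAGNNGGCGC, which overlap the first set where a site matches both) gave 3.25 matches per Mb of gap and 2.31 in control TADs. No paired analysis was possible because each condition has 1 pooled map. The lower depth of the control map limits single gaps, and without replicates no difference between conditions could be set against biological spread.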

Other observations

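Gaps taken over by a TAD from 1 side were unevenly split. The covering CTCF siRNA TAD came from the left flank in 72 gaps (14.7% of 490, Wilson 95% interval 11.8 to 18.1%) and from the right flank in 42 (8.57%, 6.40 to 11.4%). The shorter control gaps of 40 or 80 kb gave 82 and 83, and gaps of the CTCF siRNA list taken over by control TADs gave 38 and 40. The difference between these splits was not tested.

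Full cover was least frequent on chromosomes 16 and 18, with 5 of 16 and 5 of 15 gaps, and most frequent on chromosome 14, with 15 of 18. On 19 of 22 autosomes over 50% of gaps were covered in full. The median change in contacts across gaps was above 0 on 21 of 22 autosomes, with chromosome 20 (6 gaps) at -0.03. The median change within gaps was below 0 on 17 of 22 by counts.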
